A study of Mus musculus with 12 samples.

Results

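The nuclear genes for the subunits of oxidative phosphorylation were followed through 12 RNA sequencing libraries of adult mouse forebrain. Members were taken by symbol: protein-coding rows named Nduf followed by a, b, c, s or v and a digit, Sdha to Sdhd, and symbols beginning Uqcr, Cox4 to Cox8 or Atp5. Of 56748 rows in the count table, 97 matched, 12 of these were not protein-coding, and 85 members remained. By complex, 35 belong to complex I, 4 to complex II, 8 to complex III, 20 to complex IV and 18 to complex V, and 82 had enough counts to be tested. Cox8c and a second identifier of Atp5o had 0 counts in all 12 libraries, and Cox7b2 stayed between 0.0552 and 0.573 CPM (counts per library total, scaled to a common size), so these 3 were not tested.

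The libraries formed 4 groups of 3. KO+VPA carried the genotype labelled htr3a Notch KO and was exposed to valproic acid before birth, WT+VPA was wildtype with the same exposure, KO had the genotype without the exposure, and WT had neither. The series calls the deletion conditional, and the exposure, to a drug against epilepsy that also inhibits histone deacetylases, serves as a rodent model of autism. Which Notch gene was deleted, what drove the deletion, the dose and day of exposure and the animals' exact ages are not stated in the labels, which also do not say that libraries of a group came from separate animals. The p-values measure the spread between these libraries, which may then be partly technical.

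Oxidative phosphorylation passes electrons from NADH through complex I, or from succinate through complex II, by way of ubiquinone, complex III and cytochrome c to oxygen at complex IV. The proton gradient built on the way drives ATP synthesis by complex V, the ATP synthase. Complexes I, III, IV and V join subunits encoded in the nucleus with a few encoded in mitochondrial DNA, whereas complex II is wholly nuclear. Neurons depend on this pathway for most of their ATP.

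Total counts ran from 16887885 to 24944681 per library. The mitochondrial genome gave 12.2% to 18.6% of a library's counts, most in KO+VPA replicate 1. The X-inactivation transcript Xist had 6 counts in KO+VPA replicate 3, 12 counts in WT+VPA replicate 3 and 5919 to 10767 counts in the other libraries. Both libraries lacking Xist came from exposed groups, so sex as read from Xist was not balanced between exposed and unexposed groups. None of Notch1 to Notch4 passed the test in KO against WT (edgeR adjusted p = 1 for each), and Htr3a, the gene named in the genotype label, rose there (log2 fold change 1.25, adjusted p = 5.34e-05). Markers of neurons were present in every library, with a summed 4010 to 5100 CPM over 10 genes. The 85 members together held 1.52% to 1.77% of the counts.

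Per kilobase of transcript, complex IV held the highest levels. Cox4i1, the regulatory subunit 4 of cytochrome c oxidase, averaged 1570 CPM per kb over all libraries, Cox6a1 1470 and Cox8a 1180 CPM per kb. In complex V the catalytic beta subunit gene Atp5b averaged 713 CPM per kb. Uqcrh, the hinge protein of complex III, averaged 583 CPM per kb. The accessory subunit gene Ndufa3 led complex I with 353 CPM per kb, and Sdha, the flavoprotein of succinate dehydrogenase, led complex II with 150 CPM per kb. Long annotated transcripts lower such values for some members. Ndufb2, at 10.1 CPM per kb, has an annotated length of 2413 bases. Its mean of 24.3 CPM, not divided by length, was also the lowest of complex I.

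Where an isoform typical of another tissue is encoded by its own gene, the brain libraries held little of it. Cox4i2, the hypoxia-responsive form of subunit 4, made up 0.0892% to 0.297% of its pair with Cox4i1, counted per kb. Cox6a2 and Cox7a1, the heart and skeletal muscle forms, made up 0.639% to 0.927% and 1.64% to 2.88% of their pairs with Cox6a1 and Cox7a2. Cox8b, another muscle form, made up 0.403% to 0.942% of its pair with Cox8a. Summed markers of striated muscle stayed at 20.5 to 26.1 CPM over 10 genes in all libraries.

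Across the 4 groups, WT+VPA had the lowest levels. The mean log2 CPM of the 82 tested members was 6.94, 6.98 and 6.92 in the KO+VPA libraries, 6.78, 6.79 and 6.82 in the WT+VPA libraries, 6.99, 6.89 and 7.02 in the KO libraries and 6.87, 6.88 and 6.99 in the WT libraries. All 3 WT+VPA libraries lay below the other 9, and the other 3 groups overlapped. WT+VPA had the lowest of the 4 group means in 63 members (76.8%) and the highest in 0 members, whereas it was lowest for 23.6% of all 17995 genes tested. In 17 members (20.7%) every WT+VPA library was below all 9 others, which held for 1.16% of all genes. These 17 came from complexes I, III, IV and V and included Ndufs4, Ndufa7, Ndufb5, Uqcrh, Cox7a2 and Atp5e. In bulk tissue, fewer cells of a type and less RNA per cell cannot be told apart.

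**Figure D1:**
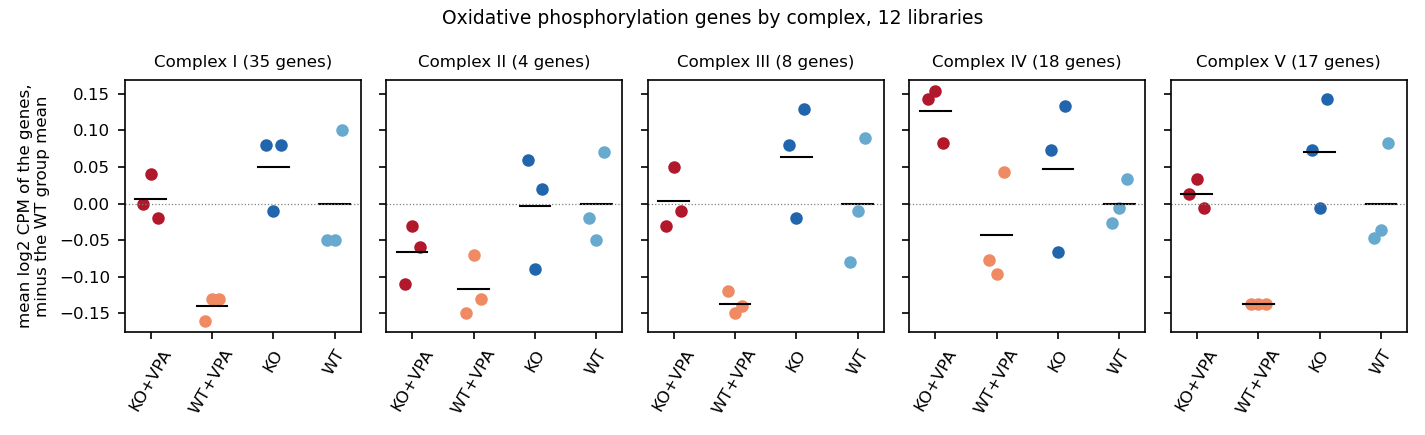
Mean log2 CPM of the tested members of each complex in each library, minus the mean of the WT libraries. KO+VPA and WT+VPA are knockout and wildtype after prenatal valproic acid, KO and WT are unexposed; each point is 1 library. In complex I the WT+VPA libraries lie at 6.63 to 6.66 before that subtraction, below the 9 others at 6.74 to 6.89.

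The same order was seen in complexes I, III and V. For complex I the mean log2 CPM was 6.77 to 6.83 in KO+VPA, 6.63 to 6.66 in WT+VPA, 6.78 to 6.87 in KO and 6.74 to 6.89 in WT. For complex III it was 7.38 to 7.46 in KO+VPA, 7.26 to 7.29 in WT+VPA, 7.39 to 7.54 in KO and 7.33 to 7.50 in WT. In complex V the WT+VPA libraries each gave 7.52, and the KO+VPA libraries 7.65 to 7.69. Complex II differed, since its WT+VPA libraries at 7.12 to 7.20 overlapped the KO+VPA libraries at 7.16 to 7.24 and the KO libraries at 7.18 to 7.33. In complex IV the WT+VPA libraries at 6.06 to 6.20 lay below the KO+VPA libraries at 6.24 to 6.31 but overlapped KO (6.09 to 6.29) and WT (6.13 to 6.19).

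Prenatal valproic acid in wildtype was read from WT+VPA against WT. 4 members fell and 0 rose at an adjusted p under 0.05 in edgeR's quasi-likelihood test, adjusted over all genes. That is 4.88% of the members, beside 0.689% of all genes called lower and 0.895% called in either direction. An unadjusted p under 0.05 was found for 29 members in the lower direction (35.4%, beside 7.61% of all genes) and for Cox6b2 alone in the higher one. Over the 82 members the log2 fold change was negative in 68 (beside 48.5% of all genes) and positive in 14, with a median of -0.12 beside 0.01 for all genes. The 3 libraries of WT+VPA lay below the 3 of WT without overlap in 41 members (50%, beside 10.9% of all genes), and above in 0.

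The 4 that fell were Ndufs4, Ndufv2 and Ndufb5 of complex I and Atp5f1 of complex V. The 280 bases from 250 before to 30 after the start of each are shown, because these genes carry the calls of this comparison and promoters of the family are known for sites of NRF1, ETS factors and YY1. Sequences and positions are RefSeq's for GRCm38.p6, 5′ to 3′ on the gene's strand: Ndufs4 chr13:114388065-114388344 (minus), Ndufv2 chr17:66101530-66101809 (minus), Ndufb5 chr3:32736813-32737092 (plus) and Atp5f1 chr3:105959234-105959513 (minus). Capitals mark matches to any of the 3 motifs searched on both strands, GCGCA, any base and GCGC for NRF1, CCGGAAG for ETS and AANATGGC for YY1.
Ndufs4: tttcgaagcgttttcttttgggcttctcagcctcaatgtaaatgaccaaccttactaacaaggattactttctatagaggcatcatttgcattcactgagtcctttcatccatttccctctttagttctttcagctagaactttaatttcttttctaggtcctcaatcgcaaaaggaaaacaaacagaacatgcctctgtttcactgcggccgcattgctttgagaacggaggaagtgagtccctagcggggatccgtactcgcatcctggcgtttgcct
Ndufv2: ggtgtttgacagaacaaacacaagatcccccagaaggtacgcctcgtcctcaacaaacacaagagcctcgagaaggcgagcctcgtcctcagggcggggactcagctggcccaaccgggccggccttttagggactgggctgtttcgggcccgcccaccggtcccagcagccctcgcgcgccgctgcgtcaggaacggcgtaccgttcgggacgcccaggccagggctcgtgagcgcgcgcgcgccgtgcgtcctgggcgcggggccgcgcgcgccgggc
Ndufb5: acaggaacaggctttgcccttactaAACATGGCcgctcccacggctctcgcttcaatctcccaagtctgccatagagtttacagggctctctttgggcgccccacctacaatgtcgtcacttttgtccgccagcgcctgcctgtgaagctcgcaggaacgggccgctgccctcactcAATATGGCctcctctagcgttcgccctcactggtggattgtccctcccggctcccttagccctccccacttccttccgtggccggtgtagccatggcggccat
Atp5f1: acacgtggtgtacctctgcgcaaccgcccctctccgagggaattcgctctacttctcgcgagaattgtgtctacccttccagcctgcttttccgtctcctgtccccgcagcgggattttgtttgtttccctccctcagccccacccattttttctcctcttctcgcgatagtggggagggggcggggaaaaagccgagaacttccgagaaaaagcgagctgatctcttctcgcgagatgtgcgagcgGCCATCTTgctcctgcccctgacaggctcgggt

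Ndufb5 had YY1 matches at -225 to -218 and at -73 to -66, and Atp5f1 had one on the other strand at -3 to 5, across its start. The windows of Ndufs4 and Ndufv2 held none of these letters. Of the 68 members with a promoter in the RefSeq table, 33 (48.5%) held at least 1 of the 3 motifs, against 16.8% of all 27025 promoters of the table. Those promoters were not matched to the members in expression or GC content. NRF1 letters were in 15 members (22.1%, against 4.57% of all), ETS letters in 15 (22.1%, against 8.7%) and YY1 letters in 8 (11.8%, against 5.33%). The ETS and YY1 motifs can share letters where they overlap. By complex, 15 of 31 promoters in complex I held a motif, 3 of 3 in complex II, 3 of 5 in complex III, 3 of 14 in complex IV and 9 of 15 in complex V. The 8 promoters with YY1 letters belonged to complexes I and V.

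Ndufs4 (ENSMUSG00000021764, chromosome 13) encodes an accessory subunit of the electron-input arm whose loss causes Leigh syndrome in people and a like disease in mice. Its level was 92.1, 97.4 and 92.3 CPM in KO+VPA, 84.6, 81.5 and 82.2 CPM in WT+VPA, 97.8, 102 and 113 CPM in KO and 102, 106 and 110 CPM in WT. The WT+VPA libraries were the lowest of the 12, and the KO+VPA libraries lay between them and both unexposed groups. In WT+VPA it was 1.28-fold lower than in WT (log2 fold change -0.36, SE 0.07, adjusted p = 0.0123). In KO+VPA it was below KO without overlap, at a log2 fold change of -0.15 that did not pass (adjusted p = 0.277).

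Ndufv2 (ENSMUSG00000024099, chromosome 17), a core subunit that carries an iron-sulphur cluster, had 147, 160 and 155 CPM in KO+VPA, 147, 147 and 143 CPM in WT+VPA, 166, 170 and 188 CPM in KO and 166, 182 and 195 CPM in WT. Both exposed groups lay below both unexposed groups. The log2 fold change was -0.31 in WT+VPA against WT (SE 0.07, 1.24-fold lower, adjusted p = 0.0328) and -0.18 in KO+VPA against KO (adjusted p = 0.216). KO+VPA and WT+VPA overlapped.

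Ndufb5 (ENSMUSG00000027673, chromosome 3), an accessory subunit of the membrane arm, had 107, 108 and 103 CPM in KO+VPA, 97.1, 95.2 and 97.9 CPM in WT+VPA, 111, 107 and 117 CPM in KO and 113, 112 and 122 CPM in WT. WT+VPA was below the 9 other libraries. The log2 fold change in WT+VPA against WT was -0.26 (SE 0.06, 1.19-fold lower, adjusted p = 0.0473).

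Atp5f1 (ENSMUSG00000000563, chromosome 3), subunit b of the stalk that holds the ATP synthase head in place, had 328, 370 and 347 CPM in KO+VPA, 303, 328 and 289 CPM in WT+VPA, 394, 383 and 379 CPM in KO and 390, 406 and 388 CPM in WT. Both exposed groups were below all 6 unexposed libraries. The log2 fold change in WT+VPA against WT was -0.36 (SE 0.07, 1.29-fold lower, adjusted p = 0.016), and in KO+VPA against KO -0.15 (adjusted p = 0.333).

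**Figure D2:**
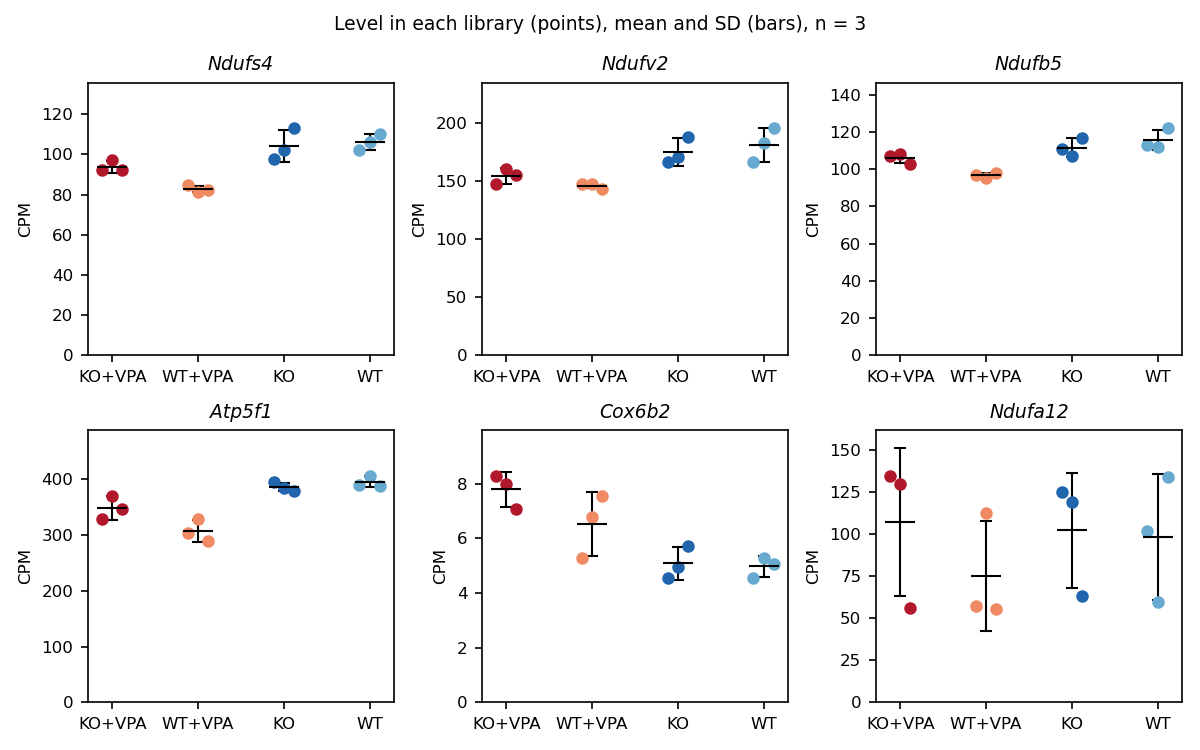
CPM of 6 members in each library (points) with the mean and SD of each group (bars, n = 3), with groups named as in the plot by complex. Ndufs4 and Ndufb5 are lowest in the WT+VPA libraries, Ndufv2 and Atp5f1 are below both unexposed groups in both exposed groups, Cox6b2 is higher in KO+VPA than in KO, and Ndufa12 has a high and a low level within every group.

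These calls changed with the libraries kept, as did those over all genes. Without WT replicate 2, without WT replicate 3 or without both libraries lacking Xist 0 members passed, without WT+VPA replicate 1 or replicate 3 only Ndufs4 did, and without WT+VPA replicate 2 only Ndufs4 and Atp5f1 did, while DESeq2 called 13 members lower among 333 genes, against 161 genes in edgeR. In the first 3 of these settings the calls over all genes were 33, 14 and 40, and the log2 fold change of Atp5f1 was -0.34, -0.37 and -0.32 (adjusted p = 0.0677, 0.0681 and 0.075). With an offset for transcript length 2 members passed, Ndufs4 and Atp5f1, and the median over the members was -0.06.

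Just outside the threshold stood the accessory subunit genes Ndufa7 (adjusted p = 0.0546), Ndufb6 (0.0572), Ndufa11 (0.0679) and Ndufc2 (0.07), the complex IV subunit gene Ndufa4 (0.07) and the core subunit gene Uqcrc2 of complex III (0.0709). Ndufa7 had 113, 109 and 111 CPM in KO+VPA, 94, 90.4 and 93.8 CPM in WT+VPA, 115, 110 and 123 CPM in KO and 107, 106 and 121 CPM in WT. Its WT+VPA libraries were below the 9 others. Ndufa4, once counted in complex I and since placed in complex IV, had 316, 337 and 320 CPM in KO+VPA, 289, 275 and 291 CPM in WT+VPA, 334, 348 and 389 CPM in KO and 318, 346 and 378 CPM in WT. Here too WT+VPA was below every other library, by a log2 fold change of -0.28 against WT.

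By complex, the log2 fold change in WT+VPA against WT was negative in 30 of 35 members of complex I (median -0.12), 3 of 4 of complex II (-0.15), 7 of 8 of complex III (-0.14), 12 of 18 of complex IV (-0.09) and 16 of 17 of complex V (-0.14). Within complex I it was negative in 6 of 7 core subunits (median -0.13), all 10 Ndufb subunits of the membrane arm (-0.19) and 14 of 18 other accessory subunits (-0.10). WT+VPA lay below WT without overlap in 17 of 35 members of complex I, 2 of 4 of complex II and 5 of 8 of complex III. In complex IV this held for 4 of 18 and in complex V for 13 of 17, beside 10.9% of all genes.

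Some catalytic subunits differed little. The ATP synthase subunits alpha and beta, Atp5a1 and Atp5b, had log2 fold changes of -0.06 (adjusted p = 0.75) and -0.08 (adjusted p = 0.682). In both, WT+VPA still lay below WT without overlap. Sdha had 454, 441 and 442 CPM in KO+VPA, 436, 432 and 447 CPM in WT+VPA, 440, 418 and 448 CPM in KO and 424, 419 and 435 CPM in WT. The KO and WT+VPA libraries overlapped all other groups, KO+VPA lay above WT, and its coefficient of variation over the 12 libraries, 2.61%, was the lowest of the members. Sdhc, a membrane anchor, had -0.10 (adjusted p = 0.558) with overlapping libraries. Sdhb, which carries iron-sulphur clusters, and Sdhd, the other anchor, had log2 fold changes of -0.21 (adjusted p = 0.13) and -0.20 (adjusted p = 0.149), each with WT+VPA below WT without overlap.

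**Figure D3:**
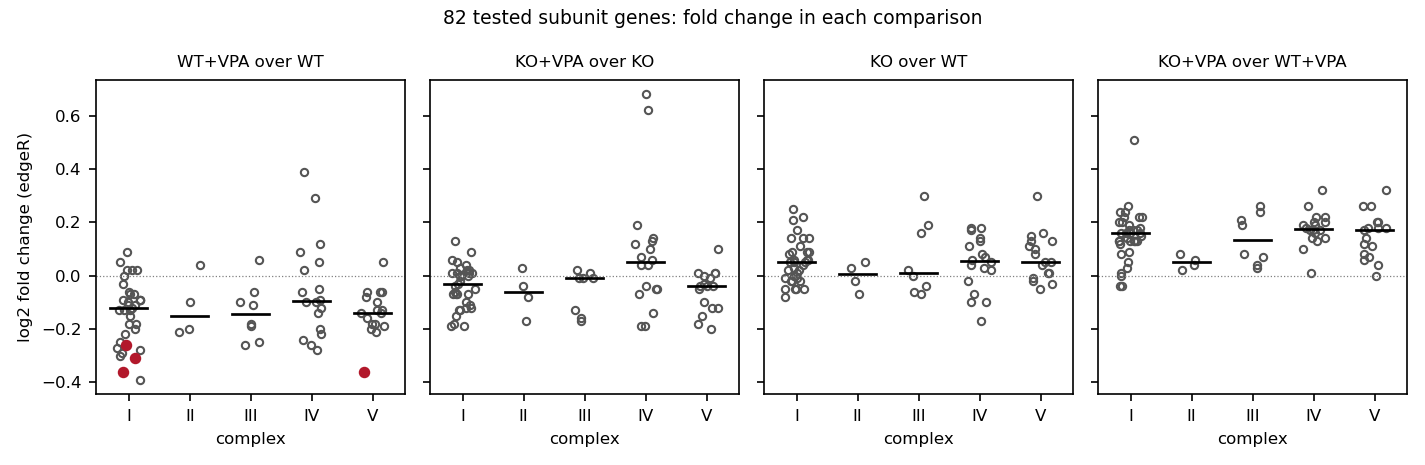
Log2 fold change of each of the 82 tested members by complex, 1 panel per comparison, with members past the test (adjusted p under 0.05) in red and groups named as in the plot by complex. 68 members lie below 0 in WT+VPA against WT, where 4 passed, and 78 lie above 0 in KO+VPA against WT+VPA, where 0 passed.

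The same exposure in the knockout was read from KO+VPA against KO. In edgeR's test 0 members passed, beside 0.0556% of all genes, with an unadjusted p under 0.05 for 9 members in the lower and 3 in the higher direction, beside 7.75% and 7.2% of all genes. Limma-voom called 0, and DESeq2 called 1 higher, Cox6b2. The median over the members was -0.03, beside 0.01 for all genes, with 48 below 0 (58.5%, beside 48.2% of all genes) and 34 above. KO+VPA lay below KO without overlap in 12 members, and above in 3, Cox6b2, Cox7a2l and Cox8a, beside 10.3% and 9.88% of all genes.

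Cox6b2, the testis-typical form of subunit 6b, had 8.3, 8.01 and 7.08 CPM in KO+VPA, 5.27, 6.79 and 7.55 CPM in WT+VPA, 4.57, 4.96 and 5.74 CPM in KO and 4.55, 5.3 and 5.08 CPM in WT. KO+VPA was above both unexposed groups without overlap, whereas WT+VPA overlapped WT at its lowest library. The log2 fold change was 0.62 in KO+VPA against KO (SE 0.16, 1.53-fold higher, adjusted p = 0.0861) and 0.39 in WT+VPA against WT (SE 0.16, adjusted p = 0.239). With DESeq2 the first had an adjusted p of 0.0487, and with no filter on low counts 0.0346. Its share of the Cox6b pair per kb was 2.67% to 3.14% in KO+VPA, 2.34% to 3.09% in WT+VPA, 1.83% to 2.16% in KO and 1.92% to 2.25% in WT. The exposed libraries were above the unexposed ones without exception, with Cox6b2 a small part of the pair throughout.

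The knockout without exposure was read from KO against WT. In edgeR's test 0 members passed, beside 0.0389% of all genes, and DESeq2 and limma-voom also called 0. An unadjusted p under 0.05 was found in 12 members, all higher (14.6%, beside 1.74% of all genes), and 55 lay above 0 (67.1%, beside 49.7% of all genes). The median was 0.05, beside 0 for all genes. The libraries of KO lay above those of WT without overlap in 8 members (9.76%, beside 3.58% of all genes), and below in 1 (beside 3.81%), the supercomplex factor gene Cox7a2l. Uqcrb, a small subunit of complex III that helps bind ubiquinone, had 84.8, 94 and 107 CPM in KO and 67, 80.1 and 85.2 CPM in WT, which overlapped (log2 fold change 0.30, SE 0.09, adjusted p = 1). Atp5k, subunit e at the interface of ATP synthase dimers, had 115, 125 and 151 CPM in KO and 99.3, 104 and 114 CPM in WT, which did not (0.30, adjusted p = 1). The median was 0.02 without WT replicate 1 and 0.09 without WT replicate 3.

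The genotypes after exposure were compared as KO+VPA against WT+VPA. The members were higher in KO+VPA in 78 of 82 cases (95.1%, beside 51.2% of all genes), with a median log2 fold change of 0.16 beside 0 for all genes. In edgeR's test 0 of them passed, beside 0.05% of all genes called, and DESeq2 and limma-voom also called 0. An unadjusted p under 0.05 was found for 38 members, all higher (46.3%, beside 4.01% of all genes). In 40 members (48.8%, beside 6.96% of all genes) the KO+VPA libraries lay above the WT+VPA libraries without overlap, and in 0 below. The 3 WT+VPA libraries enter both this comparison and that of WT+VPA against WT, so the medians of 0.16 and -0.12 are not independent of each other. Without KO+VPA replicate 1 the median here was 0.14.

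Atp5e and Uqcr11 had the largest fold changes of complexes V and III. Atp5e, the epsilon subunit of the ATP synthase stalk, had 263, 271 and 245 CPM in KO+VPA, 201, 201 and 223 CPM in WT+VPA, 262, 234 and 283 CPM in KO and 224, 223 and 265 CPM in WT. WT+VPA was below the 9 other libraries, narrowly so in replicate 3, and KO+VPA overlapped KO and WT. The log2 fold change of KO+VPA against WT+VPA was 0.32 (SE 0.08, 1.25-fold higher, adjusted p = 0.302), and with no filter on low counts its adjusted p was 0.0359. Uqcr11, a small subunit of complex III, had 205, 202 and 189 CPM in KO+VPA and 163, 161 and 174 CPM in WT+VPA (log2 fold change 0.26, adjusted p = 0.41), which did not overlap.

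Cox4i1 had 1310, 1220 and 1240 CPM in KO+VPA, 1020, 1010 and 1200 CPM in WT+VPA, 1250, 1150 and 1270 CPM in KO and 1140, 1150 and 1260 CPM in WT. KO+VPA was above WT+VPA without overlap (log2 fold change 0.22, adjusted p = 0.51), with WT+VPA replicate 3 within the range of both unexposed groups. By complex, the log2 fold change was positive in 32 of 35 members of complex I (median 0.16), 4 of 4 of complex II (0.05), 8 of 8 of complex III (0.13), 18 of 18 of complex IV (0.18) and 16 of 17 of complex V (0.17). Within complex I the 7 core subunits had a median of 0.05, the 10 Ndufb subunits 0.16 and the 18 other accessory subunits 0.17. The members at or below 0 were Ndufa9, Ndufa10, Ndufs1 and Atp5a1, with log2 fold changes of -0.04 to 0.

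Whether valproic acid acted differently in the genotypes was tested as the interaction, the KO+VPA against KO change minus the WT+VPA against WT change. No gene of 17995 passed (0%), so 0 members did, and DESeq2 and limma-voom called 0 members. An unadjusted p under 0.05 was found for 8 members, all positive (9.76%, beside 3.15% of all genes), and the lowest adjusted p over the members was 0.833. The median over the members was 0.10, beside 0 for all genes, with 69 above 0 (84.1%, beside 50.5% of all genes) and 13 below. It was 0.05 without KO replicate 2 and 0.03 with an offset for transcript length. By complex the medians were 0.10, 0.05, 0.10, 0.12 and 0.07 for I to V.

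Transcript length moved with these differences. The members are short, with a median of 737 bases beside 2508.75 for the genes tested. In KO+VPA against WT+VPA the 29 members under 600 bases had a median log2 fold change of 0.20, the 27 of 600 to under 1000 bases 0.16 and the 26 of at least 1000 bases 0.06. All tested genes in the same classes had medians of 0.14, 0.09 and -0.01. Spearman's rank correlation of fold change and length, a description across genes that share the libraries, was -0.65 over the members and -0.26 over the 17678 tested genes with a length and GC content. With an offset for length in each library the members' median was 0.05, with 71 above 0.

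In WT+VPA against WT the members' medians again fell from short to long, whereas the median of all genes was highest in the longest class. The members' medians were -0.06 under 600 bases, -0.13 from 600 to under 1000 and -0.14 from 1000 bases, and all genes had -0.05, -0.09 and 0.02 in those classes. In the longest class 24 of 26 members were below 0, beside 7089 of all 15292 genes of that class. This class has no upper bound, and the members' upper quartile of length was 1215 bases, beside 3811 for all genes. Members and all genes were thus not matched for length within it. The rank correlation with length was -0.26 over the members and 0.20 over all genes, and that with GC content 0.37 and 0.14. In KO+VPA against KO it was -0.33 and 0.01 with length and 0.58 and 0.39 with GC content. In KO+VPA against WT+VPA the correlation with GC content was 0.11 and 0.22, and in KO against WT -0.07 and -0.11. In KO against WT the members' medians were 0.11, 0.05 and -0.01 from short to long, beside 0.05, 0.01 and 0 for all genes.

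**Figure D4:**
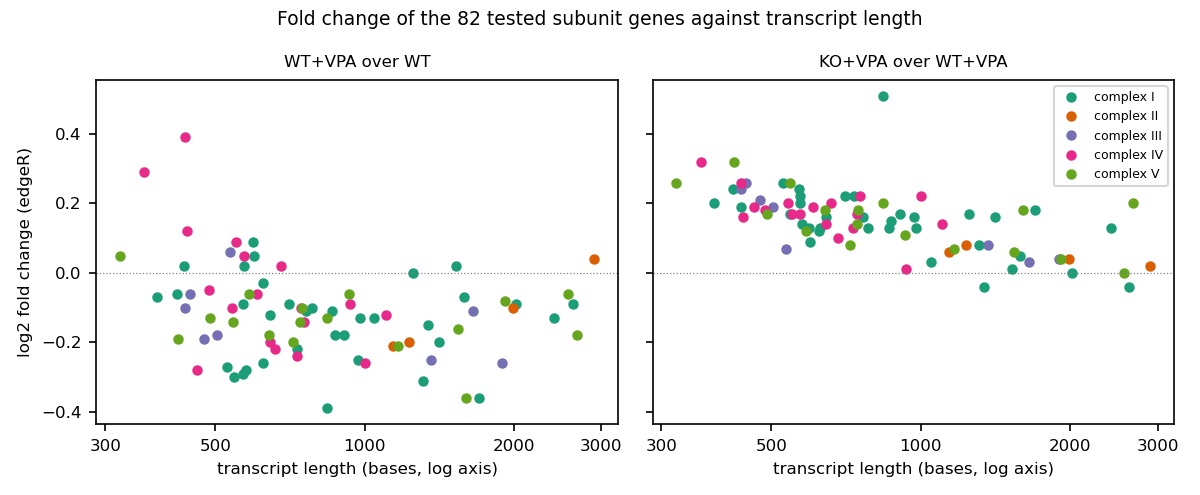
Log2 fold change of the 82 tested members against transcript length in bases (log axis), for WT+VPA against WT and KO+VPA against WT+VPA, with colours for the complexes and groups named as in the plot by complex. Spearman's rank correlation over the members is -0.26 in WT+VPA against WT and -0.65 in KO+VPA against WT+VPA, where the members above 1000 bases lie closest to 0.

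Ndufa12, an accessory subunit gene of complex I (ENSMUSG00000020022, chromosome 10), varied most. It had 135, 130 and 56.4 CPM in KO+VPA, 57.1, 113 and 55.6 CPM in WT+VPA, 125, 119 and 63.1 CPM in KO and 102, 59.5 and 134 CPM in WT. Each group held libraries at both levels: 5 libraries stood at 55.6 to 63.1 CPM and 7 at 102 to 135 CPM, a gap of 1.61-fold. Its coefficient of variation was 35.8%, against a median of 8.46% over the members. Its log2 fold changes of -0.39 in WT+VPA against WT (SE 0.48, adjusted p = 0.782) and 0.51 in KO+VPA against WT+VPA (SE 0.48, adjusted p = 0.886) were the most extreme of complex I and lay within that spread. The nearby genes Nr2c1 and Tmcc3 stayed at 6.02 to 8.61 and 33.5 to 41.5 CPM. Without Ndufa12 the members' medians were -0.12 and 0.16 in these comparisons.

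Other genes of the pathway were read from lists in the same fits. Of 46 tested assembly factors of the complexes, 36 were lower in WT+VPA than in WT (median -0.13), beside 48.5% of all genes. Past the test were 4, all lower, beside 0.689% of all genes called lower. Ndufaf5, which modifies a core subunit of complex I, had a log2 fold change of -0.35 (SE 0.08, adjusted p = 0.03). Coa3 and Coa6, which help build complex IV, had -0.40 (SE 0.09, adjusted p = 0.0431) and -0.53 (SE 0.11, adjusted p = 0.0194). Tmem70, needed for ATP synthase assembly, had -0.42 (SE 0.09, adjusted p = 0.0328). The medians of this list were -0.08 in KO+VPA against KO, 0.01 in KO against WT and 0.03 in KO+VPA against WT+VPA.

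Cytochrome c1 (Cyc1), cytochrome c (Cycs), the acyl carrier protein Ndufab1 and the ATP synthase inhibitor Atpif1, which the symbol rule leaves out, had log2 fold changes of -0.11, -0.18, -0.24 and -0.07 in WT+VPA against WT, none past the test. The 13 subunits encoded in mitochondrial DNA went the other way, with all 13 above 0 in WT+VPA against WT (median 0.15) and in KO+VPA against KO (0.22), and 0 past edgeR's test, with 1 at an unadjusted p under 0.05 in each. The mean log2 CPM of these 13 was highest in KO+VPA replicate 1, at 11.43, while KO+VPA replicates 2 and 3 had 10.78 and 10.75, within the KO range of 10.50 to 10.83. It was 10.78, 10.84 and 11.06 in WT+VPA and 10.77, 10.81 and 10.54 in WT, which overlapped. Of the 13, 0 lay above WT without overlap in WT+VPA, and 2 above KO in KO+VPA. Of 77 tested mitochondrial ribosomal proteins, 74 were lower in WT+VPA than in WT (median -0.17), beside 48.5% of all genes. Of these, 43 did not overlap (beside 10.9% of all genes) and 36 had an unadjusted p under 0.05 (beside 7.61%). In edgeR's test 0 of them passed. Of 80 cytosolic ribosomal proteins, also from short transcripts, 77 were higher in KO+VPA than in WT+VPA (median 0.21), beside 51.2% of all genes. Of these, 41 did not overlap (beside 6.96% of all genes) and 59 had an unadjusted p under 0.05 (beside 4.01%). Again 0 passed edgeR's test.

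The 17 genes of the citric acid cycle and pyruvate dehydrogenase had medians of -0.05 in WT+VPA against WT, -0.07 in KO+VPA against KO, 0 in KO against WT and 0 in KO+VPA against WT+VPA. The 16 glycolysis genes had medians of -0.02, -0.05, -0.01 and -0.01 in that order. Within this list Gapdh ran from 5.84 to 150 CPM, with log2 fold changes of -2.5, 3.03, -2.61 and 2.92, none past the test. Its 10145 counts over all libraries were the fewest of the 16 genes, and the reason for its low and uneven level was not tested. The 12 regulators of mitochondrial gene expression had medians of -0.09, -0.03, -0.03 and 0.02. Among them the coactivator gene Ppargc1a had log2 fold changes of -0.09 (adjusted p = 0.688) in WT+VPA against WT and -0.13 (adjusted p = 0.769) in KO+VPA against WT+VPA. Nrf1, the factor whose motif was searched, had 0.03 (adjusted p = 0.943) and -0.03 (adjusted p = 0.984).

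Some cell type markers differed between the same groups. All 10 markers of striatal projection neurons were lower in WT+VPA than in WT without overlap, 4 of them past the test, Drd1 and Tac1 included, with a median of -0.69. Their summed level was 1280 to 1550 CPM in KO+VPA, 1180 to 1330 CPM in WT+VPA, 1410 to 2160 CPM in KO and 1860 to 1960 CPM in WT. All 8 choroid plexus markers were higher in KO+VPA than in WT+VPA (median 0.76), 1 of them (Cldn2) past the test. They summed to 2600 to 3110 CPM in KO+VPA, 1340 to 2640 CPM in WT+VPA, 1810 to 1960 CPM in KO and 1310 to 2040 CPM in WT. The 10 markers of neurons were all lower in KO+VPA than in WT+VPA (median -0.14), with 1 at an unadjusted p under 0.05 and 0 past edgeR's test. All 5 blood markers, globins and Alas2, were lower in WT+VPA than in WT (median -0.74) and higher in KO+VPA than in WT+VPA (0.67), with 0 past edgeR's test and 1 and 0 at an unadjusted p under 0.05. They summed to 155 to 206 CPM in KO+VPA, 100 to 144 CPM in WT+VPA, 128 to 313 CPM in KO and 162 to 242 CPM in WT. All 8 oligodendrocyte markers were lower in WT+VPA than in WT (median -0.08), 1 of them at an unadjusted p under 0.05 and 0 past the test. They summed to 10100 to 11200 CPM in KO+VPA, 8740 to 11000 CPM in WT+VPA, 10000 to 10900 CPM in KO and 10200 to 10800 CPM in WT. No marker of these lists had 0 counts over the libraries. The part of these cell types in the members' differences was not tested.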

How the data were processed

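The authors deposited raw counts per Ensembl gene for 12 libraries of mouse brain RNA, with no normalisation. Per the labels' protocols, ribosomal RNA was removed with Ribo-Zero and libraries were made with a NEBNext Ultra kit. The submitters' processing notes name HISAT2 and GRCm39 (mm39) without versions; the counting program, its strand setting and its handling of reads shared with pseudogenes are not named there or in the labels.

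Symbols, biotypes and transcript lengths (the median of basic protein-coding transcripts) came from GENCODE M21 on GRCm38, which named 52125 rows holding 99.53% of the counts. Promoters came from RefSeq's GRCm38.p6 table for 68 of 84 member symbols. No position was taken from the count table.

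In R 4.3.3, edgeR 4.0.16 kept 17995 genes (filterByExpr), scaled libraries by TMM (factors 0.93 to 1.02) and fitted 1 model with a mean per group to all 12 libraries by robust quasi-likelihood (common biological coefficient of variation 0.09). Each contrast had a two-sided test, adjusted by Benjamini-Hochberg over the 17995 genes and called at 0.05. CPM used TMM-scaled totals, log2 CPM a prior count of 2, and an SE is that of the fitted log2 fold change. Fits were checked on simulated counts.

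Alternatives were other scalings and filters, limma-voom (limma 3.58.1), DESeq2 1.42.0, fits of only the groups compared, the replicate number as a block, a sex term from Xist, leaving out both libraries lacking Xist, each library left out, and an offset for transcript length. An offset for GC content and length was chosen after seeing the data. Figures used Python 3.11.15 and matplotlib 3.10.9.

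The members, lists and tests were chosen with earlier results of these data known, so no test was made over a list. Named were members past the test, those with the highest and lowest level or most extreme change in a complex, and isoform pairs. Members singled out beyond that, such as Ndufa7, Ndufb6, Ndufa11 and Ndufc2, were chosen after their values were seen.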

Additional observations from a re-analysis of the deposited data

How the results depend on the processing

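In WT+VPA against WT, where 4 members passed among 161 genes, 10 passed with no count filter (among 512), 13 with DESeq2 (333), 2 with a sex term (69), 2 with a length offset (101), 2 with an offset for GC content and length, chosen after seeing the data (69), and 0 without both libraries lacking Xist (40). Leaving out 1 library gave 0 to 5 calls, among 14 to 155 genes. In KO+VPA against KO 1 member passed with no count filter and 1 with DESeq2, and in KO+VPA against WT+VPA 1 with no count filter. Leaving out 1 library gave 0 calls in each of the other 4 contrasts.

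Over 19 alternatives Ndufs4 passed in 16 (adjusted p 0.000312 to 0.0841), Atp5f1 in 14 (3.64e-05 to 0.075), Ndufv2 in 10 (0.00386 to 0.233) and Ndufb5 in 5 (0.00804 to 0.266). The median over the members was -0.06 in WT+VPA against WT with either offset, 0.05 (length) and 0.06 (GC and length) in KO+VPA against WT+VPA, and 0.03 and 0.02 in the interaction. Leaving out 1 library gave medians of -0.15 to -0.08 in WT+VPA against WT, -0.07 to -0.01 in KO+VPA against KO, 0.02 to 0.09 in KO against WT, 0.14 to 0.18 in KO+VPA against WT+VPA and 0.05 to 0.12 in the interaction. No median or call changed direction.

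Nothing says that replicate numbers pair libraries: same-numbered libraries' deviations from their group means had r of -0.06 to 0.11 over 18 pairs, 1 of them above 0.1. With the replicate number as a block, 3 members passed in WT+VPA against WT, among 115 genes, and 0 in the other contrasts.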

Other observations

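Among the 12 matching rows that are not protein-coding, Ndufb1-ps, annotated as a long noncoding RNA, held 18562 counts over all libraries. The 11 processed pseudogenes held 0 to 537 counts each, with Ndufb4c at 537, Ndufs6b at 302 and Atp5l2-ps at 272.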
